A study of Homo sapiens with 3 samples.

Results

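The m6A readers described here are 8 genes, the YTH domain genes YTHDF1, YTHDF2, YTHDF3, YTHDC1 and YTHDC2 and the IGF2BP genes IGF2BP1, IGF2BP2 and IGF2BP3. They were taken by symbol from a table of 21572 genes, and all 8 were listed. The table gave 1 RNA sequencing library for each of 3 lines of Hep-G2, an established cell line derived from a human hepatoma. Per the labels, the sh#7 line carried the FTO hairpin TRCN0000246247, the sh#2 line carried the FTO hairpin TRCN0000255402, and the control line carried the hairpin SHC002, which the series design calls the scramble. All 3 were at passage 21 and were grown in the same serum-containing medium. The series design states that FTO was knocked down more efficiently in sh#7 than in sh#2. Since each hairpin stood for 1 line and 1 library, differences could not be checked against replicates, and the hairpin, the line and the FTO level cannot be told apart.

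N6-methyladenosine, or m6A, is a methyl mark on internal adenosines of RNA. It is written by a complex around METTL3 and METTL14 and removed by the demethylases FTO and ALKBH5. Readers are proteins that bind marked RNA. A YTH domain holds the methylated base in an aromatic pocket: the cytoplasmic YTHDF proteins are best known for linking marked mRNA to deadenylation, decay and translation, YTHDC1 acts in the nucleus on splicing and export, and YTHDC2 is an RNA helicase studied mostly in germ cells. The IGF2BP proteins bind RNA through KH domains and are known for stabilising target mRNAs. IGF2BP1 and IGF2BP3 are oncofetal, being made in fetal tissues and again in many hepatomas, whereas IGF2BP2 is also made in adult tissues.

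FTO itself was at 2.55 FPKM in sh#7, 5.29 FPKM in sh#2 and 9.02 FPKM in the control, an order that follows the labels. FPKM counts fragments relative to transcript length and to the mapped total of the library. The depth estimated from single-fragment steps was about 41800000 to 43300000 fragments per library. It was read within the same fixed window in every library, so these estimates could differ little. Of 10 hepatocyte markers, all 10 were at 1 FPKM or more in every library, and their summed level was 11512 FPKM in sh#7, 19533 FPKM in sh#2 and 25545 FPKM in the control. Each of the 10 was lower in sh#7 than in the control. In sh#2 they split: APOA2, TF, TTR, SERPINA1 and AHSG were lower, while ALB, APOA1, APOB, APOH and HNF4A were at or above the control in FPKM. In log2(FPKM + 1) APOH was higher by 0.30, but ALB and APOA1 by only 0.01 and APOB and HNF4A by 0.07. ALB and APOA1 fell below the control under each other scaling of the libraries tried. Of 7 blood and immune markers, PTPRC, CD3E and HBB were listed at 0 in all 3 libraries. The 7 summed to 323 FPKM in sh#7, 1353 FPKM in sh#2 and 3257 FPKM in the control, nearly all of it lysozyme, LYZ, at 297, 1321 and 3216 FPKM. CD68 was at 23.3, 30.8 and 39.3 FPKM in sh#7, sh#2 and the control. The 4 endothelial markers summed to at most 0.196 FPKM, with KDR listed at 0. Of 7 fibroblast and stellate markers, 4 were listed at 0 in each library (COL1A2, COL3A1, DCN and LUM), and the 7 summed to 52.7, 35.4 and 43.9 FPKM in sh#7, sh#2 and the control, most of it ACTA2. PDGFRB was at 0.62, 1.69 and 3.76 FPKM in the same order. The part of the lower hepatocyte levels in the results below was not tested, and in bulk RNA fewer cells of a kind and less RNA per cell cannot be told apart.

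Promoter sequences were read from a table of RefSeq starts on GRCh38.p14, in which 6 of the 8 readers were matched. Those of YTHDF3 and IGF2BP1 were not used here. The 250 bases before the start are shown for YTHDF1 and IGF2BP2, the readers with the largest and the smallest difference between sh#7 and the control, and for YTHDC1, YTHDC2 and IGF2BP3, which share short motifs with another reader. Each is written 5′ to 3′ on the strand of the gene, and capitals mark CACGTG, the E-box bound by MYC and related factors, or TGACGTCA, the cAMP response element. The positions were chr20:63216132-63216381 on the minus strand for YTHDF1, chr4:68350091-68350340 on the minus strand for YTHDC1, chr5:113513444-113513693 on the plus strand for YTHDC2, chr3:185825043-185825292 on the minus strand for the upstream start of IGF2BP2 and chr7:23470492-23470741 on the minus strand for IGF2BP3.
YTHDF1: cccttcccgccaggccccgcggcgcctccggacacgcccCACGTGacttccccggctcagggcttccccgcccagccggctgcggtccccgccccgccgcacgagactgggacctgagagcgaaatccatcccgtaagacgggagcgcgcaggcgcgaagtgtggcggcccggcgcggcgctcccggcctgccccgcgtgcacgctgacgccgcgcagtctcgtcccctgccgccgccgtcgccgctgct
YTHDC1: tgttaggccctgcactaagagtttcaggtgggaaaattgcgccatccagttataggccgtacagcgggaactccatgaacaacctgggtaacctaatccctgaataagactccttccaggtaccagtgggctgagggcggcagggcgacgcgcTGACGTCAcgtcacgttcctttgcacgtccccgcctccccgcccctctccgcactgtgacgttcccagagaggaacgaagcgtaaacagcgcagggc
YTHDC2: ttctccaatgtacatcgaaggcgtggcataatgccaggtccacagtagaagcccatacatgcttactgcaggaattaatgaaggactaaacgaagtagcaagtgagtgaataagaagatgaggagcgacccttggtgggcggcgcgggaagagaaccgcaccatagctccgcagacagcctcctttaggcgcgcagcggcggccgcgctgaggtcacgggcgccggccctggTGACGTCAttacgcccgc
IGF2BP2: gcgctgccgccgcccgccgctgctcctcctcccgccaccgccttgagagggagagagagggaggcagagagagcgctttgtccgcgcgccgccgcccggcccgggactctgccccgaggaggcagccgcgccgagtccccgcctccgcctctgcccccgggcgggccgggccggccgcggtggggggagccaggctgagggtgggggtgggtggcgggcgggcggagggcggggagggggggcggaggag
IGF2BP3: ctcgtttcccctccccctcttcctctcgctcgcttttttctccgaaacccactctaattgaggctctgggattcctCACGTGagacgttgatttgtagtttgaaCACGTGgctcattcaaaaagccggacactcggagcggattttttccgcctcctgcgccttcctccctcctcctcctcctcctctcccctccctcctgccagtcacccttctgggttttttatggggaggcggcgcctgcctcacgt

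Both marked motifs read the same on either strand, and no marked copy overlapped another. CACGTG was found once before YTHDF1, with its first base at -211 from the start, and at 2 places before IGF2BP3, at -174 and -146. It was present in 6.34% of 35116 promoter windows of this length. TGACGTCA was found once before each YTHDC gene, at -97 for YTHDC1 and at -18 for YTHDC2, and was present in 1.65% of all windows. Neither motif was in the window shown for IGF2BP2, which was made of G and C for 81.6% of its bases and held 7 copies of GGGCGG, the GC box, counted on both strands. The window of its other start, not shown, was 32.8% G and C and held 0 GC boxes. Neither marked motif was in that window or in those of YTHDF2, which are not shown either. The GC box was in 42.6% of all windows. These matches describe letters in a window and say nothing about binding.

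All 8 readers were expressed in every library, between 6.50 and 52.4 FPKM. All of them passed the filter for comparison, an average of 1 FPKM or more, which left 11069 genes. YTHDF1 was the highest reader in sh#7, and IGF2BP2 was the highest in sh#2 and in the control. YTHDC2 was the lowest in each, above 38.5% of the compared genes in sh#7, 34.3% in sh#2 and 35.2% in the control. The order was mostly shared: YTHDF1, IGF2BP2 and IGF2BP1 took the first 3 places in each library, and YTHDF2, IGF2BP3, YTHDC1, YTHDF3 and YTHDC2 followed in that order. The neighbours whose counting intervals overlapped were IGF2BP2 and IGF2BP1 in sh#7, IGF2BP2 with YTHDF1 and IGF2BP3 with YTHDC1 in sh#2, and YTHDF2 with IGF2BP3 in the control.

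**Figure D1:**
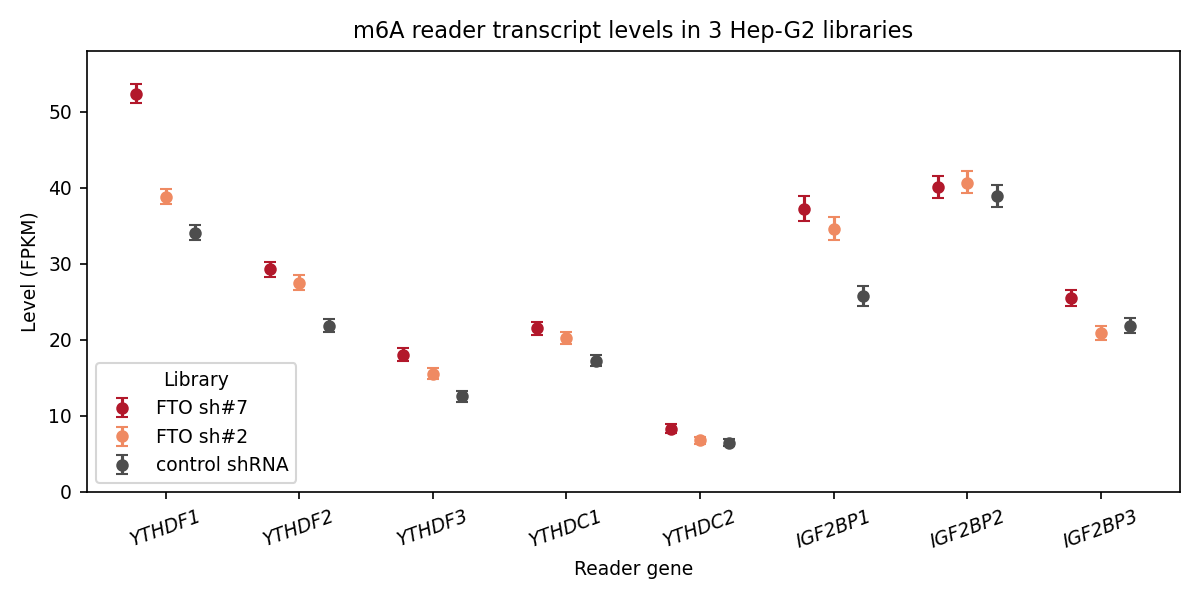
Level of each reader gene in FPKM (y axis) in the sh#7, sh#2 and control libraries (left to right for each gene), 1 library each; bars are exact 95% Poisson intervals for the sampling of fragments, with no replicate error. YTHDF1 reaches 52.4 FPKM in sh#7, while the 3 values of IGF2BP2 lie between 38.9 and 40.7 FPKM.

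Among the cytoplasmic YTHDF genes, YTHDF1, whose protein is known for promoting translation of marked mRNAs, was at 52.4 FPKM in sh#7, 38.8 FPKM in sh#2 and 34.1 FPKM in the control. The sh#7 library stood apart from the others, and the intervals of the 3 levels did not overlap. YTHDF2, which recruits the CCR4-NOT deadenylase to marked mRNAs, was at 29.3 FPKM in sh#7, 27.5 FPKM in sh#2 and 21.9 FPKM in the control. Here both knockdown lines lay above the control, and their own intervals, 28.3 to 30.3 and 26.6 to 28.5 FPKM, overlapped. YTHDF3, which acts together with both of the others, was at 18.0 FPKM in sh#7, 15.6 FPKM in sh#2 and 12.6 FPKM in the control, with 3 separate intervals.

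YTHDC1, the nuclear reader, was at 21.5 FPKM in sh#7, 20.3 FPKM in sh#2 and 17.2 FPKM in the control. The levels of the knockdown lines overlapped and both were above the control. YTHDC2, the helicase, was at 8.34 FPKM in sh#7, 6.79 FPKM in sh#2 and 6.50 FPKM in the control. Its sh#7 level was above the other two, whose intervals overlapped.

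Among the IGF2BP genes, IGF2BP1 was at 37.2 FPKM in sh#7, 34.6 FPKM in sh#2 and 25.7 FPKM in the control. Both knockdown lines were above the control, and their intervals overlapped each other. IGF2BP2 was at 40.0 FPKM in sh#7, 40.7 FPKM in sh#2 and 38.9 FPKM in the control, and all 3 intervals overlapped. IGF2BP3 was at 25.5 FPKM in sh#7, 20.9 FPKM in sh#2 and 21.9 FPKM in the control. Only its sh#7 level stood apart, and the intervals of sh#2 and the control overlapped.

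Differences were taken as log2(FPKM + 1) of 1 library minus that of another, a scale that understates the change of low genes. In sh#7 against the control, all 5 YTH genes were higher, by 0.30 to 0.60 with a median of 0.40, where the median of all compared genes was 0.16. Their direction was the same under the other scalings tried, but median-of-ratios scaling took the median to 0.23 and YTHDC1, the smallest, to 0.14. For YTHDF1 the difference was 0.60 (95% interval 0.55 to 0.66), larger than in 91.1% of compared genes. YTHDF3 differed by 0.48 (0.38 to 0.59), YTHDF2 by 0.40 (0.33 to 0.48), YTHDC2 by 0.32 (0.19 to 0.45) and YTHDC1 by 0.30 (0.23 to 0.38). The lower bound for each of the 5 was above the median of all genes, but these intervals cover counting error only. The differences of YTHDC2 and YTHDC1 were larger than in 69.0% and 67.6% of compared genes, between the 25th and 75th percentiles.

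The IGF2BP genes spread more widely in the same comparison. IGF2BP1 was higher by 0.52 (0.42 to 0.61), more than in 86.9% of compared genes, and IGF2BP3 by 0.21 (0.13 to 0.30), an interval that holds the median of all genes. IGF2BP2 differed by 0.04 (-0.03 to 0.12), below the median of all genes, and turned negative under each of the 3 other scalings, to -0.13 under median-of-ratios scaling. No reader passed 2-fold in either direction, where 2.35% of compared genes were past 2-fold higher and 2.48% were past 2-fold lower. At 1.5-fold, 1 of the 8 was higher, YTHDF1, beside 9.61% of compared genes, and 0 were lower, beside 6.18%. YTHDF1 was just past that size, at 1.54 times the control in FPKM, and was inside it under each of the 3 other scalings.

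In sh#2 against the control, which uses the same control library, the 8 readers had a median of 0.20, beside 0.10 for all compared genes. IGF2BP1 was higher by 0.41 (0.32 to 0.51), more than in 91.7% of compared genes. YTHDF2 was higher by 0.32 (0.25 to 0.39) and YTHDF3 by 0.29 (0.18 to 0.39), followed by YTHDC1 at 0.22 (0.15 to 0.30) and YTHDF1 at 0.18 (0.13 to 0.24). These 5 lay above the median of all genes and kept their direction under each scaling. YTHDC2 at 0.05 (-0.07 to 0.18) and IGF2BP2 at 0.06 (-0.01 to 0.14) lay below it, and both turned negative when libraries were scaled by median-of-ratios or upper quartile. IGF2BP3 was at -0.06 (-0.15 to 0.02) and stayed negative under the 3 scalings. No reader passed 1.5-fold, beside 2.67% of compared genes higher and 2.72% lower at that size, and none passed 2-fold, beside 0.506% higher and 0.723% lower.

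**Figure D2:**
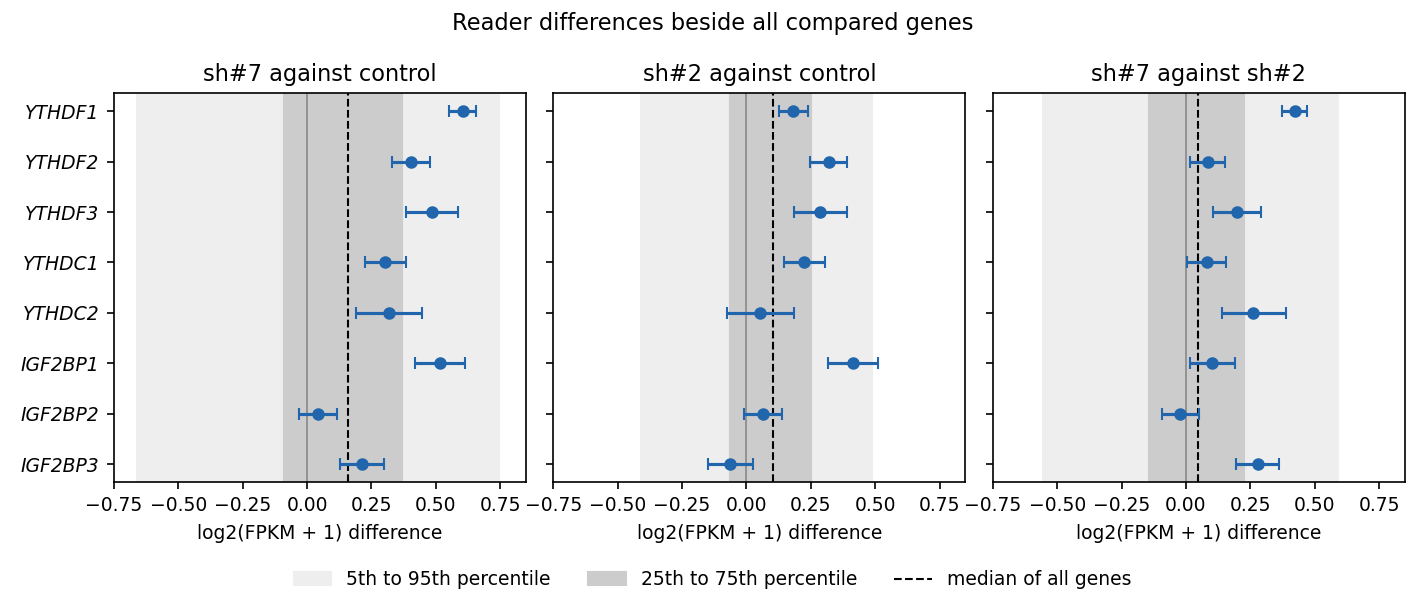
Difference in log2(FPKM + 1) (x axis) of the 8 readers in each of the 3 comparisons; bars are exact 95% intervals for counting error, the dashed line is the median and the grey bands are the 25th to 75th and 5th to 95th percentiles of 11069 compared genes. YTHDF1 lies at 0.60, 0.18 and 0.42 in the panels from left to right, and no reader passes the 95th percentile.

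Set against each other, sh#7 and sh#2 differed most in YTHDF1, which was higher in sh#7 by 0.42 (0.37 to 0.47), more than in 90.0% of compared genes. IGF2BP3 followed at 0.28 (0.19 to 0.36), then YTHDC2 at 0.26 (0.14 to 0.39) and YTHDF3 at 0.20 (0.10 to 0.29). For these 4 the interval lay above the median of all genes, 0.05. That median lay inside the intervals of IGF2BP1 at 0.10 (0.01 to 0.19), YTHDF2 at 0.09 (0.02 to 0.15) and YTHDC1 at 0.08 (0.01 to 0.15). It also lay inside that of IGF2BP2 at -0.02 (-0.09 to 0.05). These intervals rest on short transcripts, 1317 nt for IGF2BP1 where its longest is 8274 nt, and longer ones would narrow them. No reader passed 1.5-fold here, beside 5.14% of compared genes higher and 4.55% lower, nor 2-fold, beside 1.45% higher and 1.52% lower.

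The YTH genes shared an order of the libraries, which only 1 of the 3 IGF2BP genes followed. The levels of 6 readers, the 5 YTH genes and IGF2BP1, were highest in sh#7, next in sh#2 and lowest in the control. This order held for 37.9% of compared genes, and the reverse order for 13.4%, which no reader followed. Median-of-ratios scaling left 5 of the 8 in the first order, without YTHDC2, beside 23.7% of compared genes, and put IGF2BP2 in the reverse order, beside 24.4%. With upper-quartile scaling the same 5 were in the first order, beside 28.3%, and IGF2BP2 in the reverse, beside 20.3%. YTHDF2, YTHDF3, YTHDC1 and IGF2BP1 had more than 0.5 of their sh#7 difference in sh#2 as well, while YTHDF1 and YTHDC2 had less. IGF2BP3 had differences of opposite sign, and its 0.21 in sh#7 became 0.046 when scaled by median-of-ratios and 0.10 by upper quartile. YTHDF2 and YTHDF3 were the closest pair, at a distance of 0.09 over the differences of sh#7 and sh#2 from the control. The next closest pair was YTHDF3 and IGF2BP1, at 0.13, members of different families.

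Many genes outside the reader families had the same patterns. Over the same pair of differences and among genes averaging 10 FPKM or more, the 3 nearest to YTHDF1 were FCF1, HGS and TTC14, of which FCF1 was at 32.1, 23.9 and 20.9 FPKM in sh#7, sh#2 and the control. A total of 129 of 6127 genes lay within 0.1 of YTHDF1, the fewest for any reader. For IGF2BP1 the number was 162, and the nearest were TAF13, WDR82 and TAOK2. The nearest to YTHDF2 were GADD45A, OAF and MITD1 (338 within 0.1), and the nearest to YTHDF3 were EHMT2, SPRYD3 and SFPQ (289). For YTHDC1 they were C1orf174, PEX10 and GART (488 within 0.1) and for YTHDC2 ZNF444, PNMA1 and GDE1 (326 of 6128). IGF2BP2 had PRPF6, PPA1 and PCGF2 nearest, with 465 within 0.1, and IGF2BP3 had ZCRB1, FTH1 and DTD1, with 221. Each of these likenesses rests on 3 libraries.

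The make-up of the families can be read per length from FPKM. The summed YTHDF level was 99.6 FPKM in sh#7, 81.9 FPKM in sh#2 and 68.6 FPKM in the control. YTHDF1 made up 52.6% of it in sh#7, 47.4% in sh#2 and 49.7% in the control, and YTHDF2 made up 29.4%, 33.6% and 31.9%. The share of YTHDF3 was 18.1%, 18.99% and 18.4%, so the rank of the 3 paralogs per length was the same in each library. The ratio of YTHDF1 to YTHDF2 was 1.79 in sh#7, 1.41 in sh#2 and 1.56 in the control, with sh#7 and sh#2 on either side of the control.

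The IGF2BP genes summed to 103 FPKM in sh#7, 96.2 FPKM in sh#2 and 86.4 FPKM in the control. IGF2BP1 made up 36.2% in sh#7, 36.0% in sh#2 and 29.8% in the control. IGF2BP2 had the largest share of FPKM in each library, 39.0% in sh#7, 42.3% in sh#2 and 44.9% in the control. IGF2BP3 had 24.8%, 21.7% and 25.3%. The ratio of IGF2BP2 to IGF2BP1 was thus 1.08 in sh#7, 1.18 in sh#2 and 1.51 in the control. Shares and ratios within a library do not depend on how libraries are scaled, but they do depend on the transcript length used for each gene. Estimated fragments from the longest annotated coding transcript turned the ranks: IGF2BP1 then led with 54.6% in sh#7, 54.5% in sh#2 and 47.4% in the control, and YTHDF3 passed YTHDF2 in each library, with 26.6% and 24.3% in sh#7. With the shortest of 1000 nt or more, IGF2BP1 made up 28.5%, 28.6% and 23.1%. Its share was higher in both knockdown lines than in the control with either length.

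**Figure D3:**
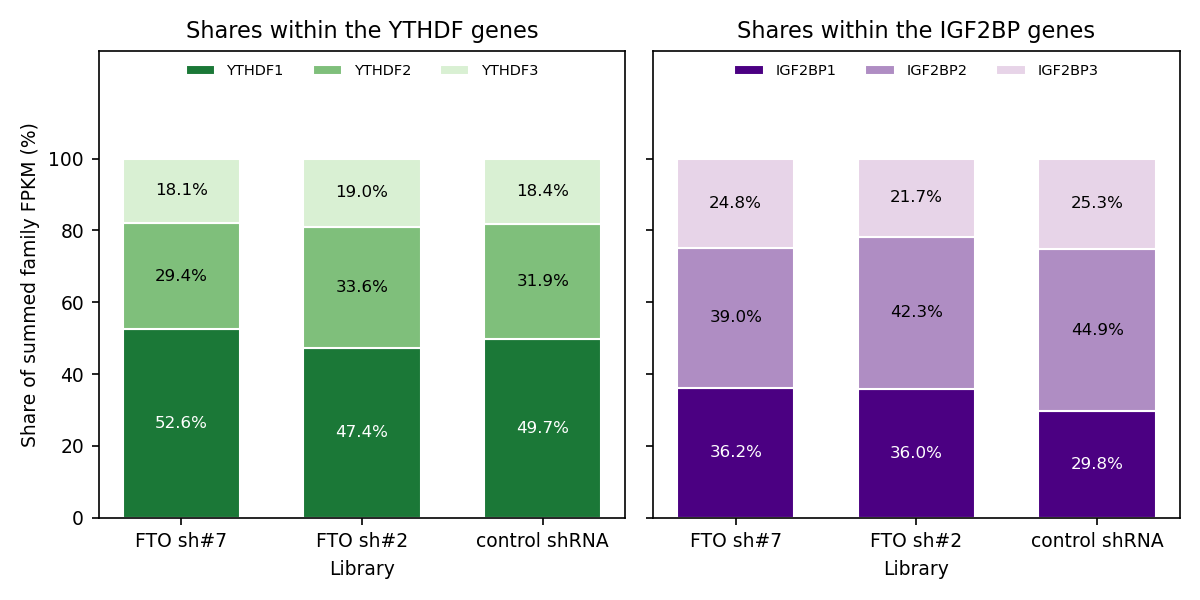
Share of each paralog in the summed FPKM (y axis, percent) of the YTHDF genes (left) and the IGF2BP genes (right) in the sh#7, sh#2 and control libraries, 1 library each. IGF2BP1 takes 36.2% and 36.0% in the knockdown lines and 29.8% in the control, while the YTHDF shares per length keep their rank.

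The reader transcripts differ in how often they hold GGAC, the core of the consensus around m6A sites. The longest annotated coding transcript in GENCODE 29 was searched on its sense strand for 9781 compared genes, which had a median of 3.70 copies per kilobase. YTHDF1 held 4.85 copies per kilobase, IGF2BP1 4.71 and YTHDF2 4.44, more than in 67.8%, 66.0% and 62.4% of these genes. YTHDC1, with 2.41, and YTHDC2, with 2.37, were in the lower part, above 22.6% and 21.8% of genes. IGF2BP2 held 3.80, IGF2BP3 3.06 and YTHDF3 2.70. The base content differed too, with 40.3% and 40.1% G and C in YTHDC1 and YTHDC2 and 51.9% in YTHDF1, and its part in these numbers was not tested. The IGF2BP1 transcript was 8274 nucleotides long and held 39 copies, and was longer than that of 93.1% of these genes.

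The partners and targets of the readers were listed by their known roles. Among 12 other proposed readers (FMR1, the HNRNP and G3BP genes and others), 0 passed 1.5-fold in any comparison. Of all compared genes, 9.61% were past that size higher and 6.18% lower in sh#7 against the control. The shares were 2.67% and 2.72% in sh#2 against the control, and 5.14% and 4.55% in sh#7 against sh#2. The median of the 12 in sh#7 against the control was 0.07, below the median of all genes. Median-of-ratios scaling turned it to -0.11, upper-quartile scaling to -0.046. FMR1, the fragile X protein gene, was at 15.0 FPKM in sh#7, 17.5 FPKM in sh#2 and 21.7 FPKM in the control, and the stress granule gene G3BP2 was at 82.2, 61.2 and 56.4 FPKM. The 9 writer genes had a median of 0.24 in sh#7, where that of all genes was 0.16, and 0.19 in sh#2, where it was 0.10. Of them 1 was past 1.5-fold higher in sh#7, beside 9.61% of all compared genes: METTL16, which methylates U6 snRNA, at 11.2 FPKM against 6.31 FPKM in the control. METTL3, the catalytic subunit, chosen after its values were seen, was lower in sh#7, at 32.1 FPKM, with 41.6 FPKM in sh#2 and 40.2 FPKM in the control. Its partner METTL14 was at 15.1, 13.5 and 10.1 FPKM, and the other eraser, ALKBH5, was at 37.1, 34.1 and 36.4 FPKM in sh#7, sh#2 and the control.

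The CCR4-NOT deadenylase is the complex that YTHDF2 recruits. Of its 11 genes 1, CNOT8, was past 2-fold lower in sh#7, beside 2.48% of all compared genes. The median over the list came to 0.20 in sh#7, where that of all genes was 0.16, with 0.14 in sh#2, where it was 0.10. CNOT8, a catalytic subunit, was at 19.6 FPKM in sh#7, 26.7 FPKM in sh#2 and 42.1 FPKM in the control, and was past 1.5-fold lower in sh#2 as well, beside 2.72% of all genes. CNOT7, its paralog in the same position of the complex, chosen after its values were seen, was at 44.2, 45.7 and 45.5 FPKM. CNOT1, the scaffold that YTHDF2 contacts, was at 63.4, 48.6 and 43.9 FPKM.

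Of 5 genes known to work with the YTHDC proteins, 4 were compared and 0 passed 1.5-fold in sh#7, beside 9.61% of all compared genes higher and 6.18% lower. The median of these 4 was 0.32 in sh#7 and 0.26 in sh#2, where those of all genes were 0.16 and 0.10. SRSF3, a splicing factor that binds YTHDC1, was at 174 FPKM in sh#7, 169 FPKM in sh#2 and 128 FPKM in the control, and SRSF10 was at 94.4, 88.7 and 74.1 FPKM. Of 7 IGF2BP partners 0 passed 1.5-fold either, and their medians, 0.20 in sh#7 and 0.23 in sh#2, stood beside 0.16 and 0.10 for all genes. The RNA helicase gene DHX9 was at 80.6 FPKM in sh#7, 66.9 FPKM in sh#2 and 53.8 FPKM in the control, and HNRNPU was at 187, 157 and 132 FPKM. Both belong with IGF2BP1 to a complex on the MYC coding region.

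Known IGF2BP target RNAs went in both directions. The median of those compared was 0.35 in sh#7 and 0.21 in sh#2, where those of all genes were 0.16 and 0.10. Of 15 listed, 12 were compared, and in sh#7 against the control 2 were past 2-fold higher and 1 was past 2-fold lower, beside 2.35% and 2.48% of all compared genes. FSCN1, the actin bundling protein fascin, was at 294 FPKM in sh#7, 136 FPKM in sh#2 and 65.6 FPKM in the control. CCND1, cyclin D1, was at 287, 128 and 91.7 FPKM. IGF2, the growth factor whose mRNA gave the family its name, was at 291 FPKM in sh#7, 1914 FPKM in sh#2 and 2138 FPKM in the control, with log2 differences from the control of -2.87 in sh#7 and -0.16 in sh#2. MYC, chosen after its values were seen, was at 83.0, 73.7 and 78.2 FPKM. In sh#2 against the control 1 of the 12 was past 2-fold higher, beside 0.506% of all genes. This was FSCN1, by 1.04, and it was inside 2-fold under the 3 other scalings.

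**Figure D4:**
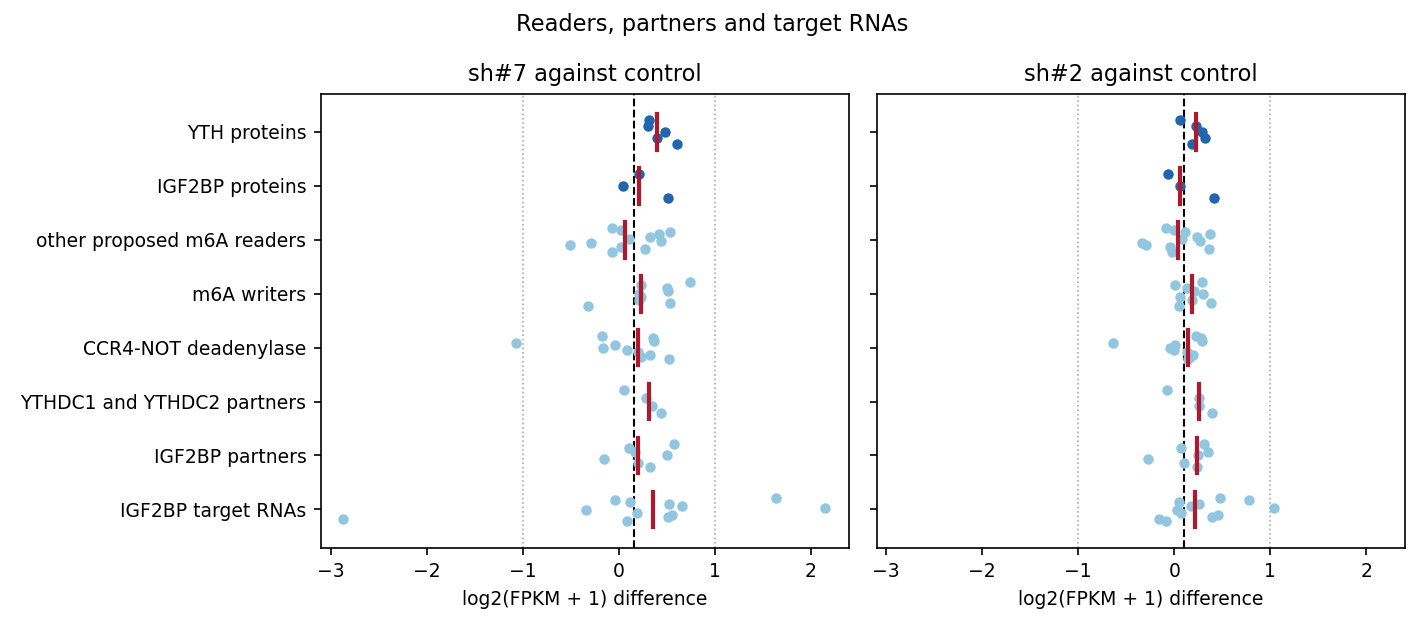
Difference in log2(FPKM + 1) (x axis) of single genes (points) by list (rows) for sh#7 against control (left) and sh#2 against control (right); red bars are list medians, the dashed line is the median of 11069 compared genes and dotted lines mark 2-fold. The readers (dark points) lie within 2-fold, while IGF2 lies at -2.87 and FSCN1 at 2.15 in sh#7.

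IGF2BP1 and IGF2BP3 are oncofetal genes, and other genes of that kind were listed beside them. Of 11 listed, 8 were compared, and 0 of the 8 lay above the median of all genes in sh#7 against the control, with a list median of -0.49 where that of all genes was 0.16. In sh#2 against the control 2 of the 8 lay above it, LIN28B and PEG10, both chosen after their values were seen, and the list median was -0.09 where that of all genes was 0.10. AFP, which encodes the alpha-fetoprotein of fetal blood, had 15.7 FPKM in sh#7, 294 FPKM in sh#2 and 961 FPKM in the control. DLK1, a fetal liver surface protein gene, was at 165, 382 and 389.8 FPKM, and with AFP and IGF2 it made up the 3 that were past 2-fold lower in sh#7, beside 2.48% of all compared genes. PEG10, an imprinted gene derived from a retrotransposon, was at 146 FPKM in sh#7, 287 FPKM in sh#2 and 238 FPKM in the control. LIN28B, which blocks let-7 maturation, was at 7.87 FPKM in sh#7, 14.6 FPKM in sh#2 and 8.10 FPKM in the control, so it was high in sh#2 alone.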

How the data were processed

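RNA from 3 Hep-G2 lines was sequenced, 1 library per line. The authors deposited 1 table of FPKM values with 1 row per gene. Its header names no unit, and the values are read as FPKM from the tools named and from their range. The submitters' processing notes name Cufflinks 2.2.1, STAR 2.4.0j and HTSeq with build hg19, without saying what each tool did. As the deposited FPKM hold no counts, count models did not apply, and with 1 library per group no test was made. The members and gene lists were chosen with earlier results of these data known.

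Differences used a pseudocount of 1 and genes averaging 1 FPKM or more (11069 genes). FPKM divides by the mapped total of the library. Of the summed FPKM, which is not that total, the 100 highest genes held 29.0% in sh#7, 31.3% in sh#2 and 34.7% in the control. Depth was estimated from genes with a single GENCODE 29 transcript over 800 nt, whose low values gather at the level of 1 fragment. The same fixed window around that level was used for every library, which limits how far the estimates can differ. Intervals are exact 95% intervals on estimated fragments (Poisson for levels, Clopper-Pearson for differences), use the shortest coding transcript of at least 1000 nt, and cover counting error only. A longer transcript would give more fragments and narrower intervals, so which intervals overlap depends on this choice. The GENCODE annotation is newer than the build named, so lengths are approximate. Of the symbols listed, 26 had turned into dates; none was a member. Named genes were all members, FTO, the 2 genes of each list with the largest sh#7 difference, any list member past 2-fold in a knockdown line, and the 3 nearest genes to each member; others are marked. The alternatives were another pseudocount, 3 scalings, other minimum levels and, for the shares, fragments estimated from the longest transcript. The calculations were tested on simulated data with Python 3.11.15, numpy 2.4.6, pandas 2.3.3 and scipy 1.17.1. The simulation used the same transcript lengths and depths as the intervals, and its depth window was centred on the simulated depth. It thus checked the arithmetic, and could not show that the depths or intervals are right for these data.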

Additional observations from a re-analysis of the deposited data

Results flagged for a closer look

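In some genes the differences of the 2 knockdown lines from the control had opposite signs, and none of these contrasts was tested, since each line gave 1 library. Among the readers this was IGF2BP3, with log2(FPKM + 1) differences of 0.21 in sh#7 and -0.06 in sh#2, where the sh#2 interval holds 0. ALKBH5 was at 0.02 and -0.09, MYC at 0.08 and -0.09 and CNOT7 at -0.04 and 0.01. LIN28B was at -0.04 in sh#7 and 0.77 in sh#2. ALB was at -1.49 and 0.01, and APOA1 at -1.27 and 0.01. METTL3 was at -0.32 and 0.05, and PEG10 at -0.70 and 0.27. ACTA2, a smooth muscle actin gene on the fibroblast and stellate list, was at 0.35 and -0.25. Among these 10 genes the opposite signs depended in part on the scaling. Under median-of-ratios and upper-quartile scaling 4 kept them, IGF2BP3, ACTA2, LIN28B and PEG10. Scaling without the 100 highest genes kept them for these and MYC. The search left out listed genes that were neither readers, picked by size nor marked as chosen. Hepatocyte markers left out with opposite signs were APOH at -0.47 and 0.30, APOB at -0.30 and 0.07 and HNF4A at -0.19 and 0.07. Their signs were not followed under the scalings.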

How the results depend on the processing

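No paired analysis was possible because only 1 library per hairpin was sequenced, and for that reason no replicate could be left out. Median-of-ratios scaling moved the median of all genes to 0.00 in sh#7 against the control, upper-quartile scaling to 0.06 and scaling without the 100 highest genes, which was chosen after seeing the data, to 0.11, and each gave 0 readers past 1.5-fold higher in place of 1. In sh#7 against the control, the median of the 8 readers was 0.20 with median-of-ratios and 0.25 with upper-quartile scaling, that of the YTH genes 0.23 and 0.29, and that of the IGF2BP genes 0.046 and 0.10. In sh#2 they were 0.089 and 0.11, 0.11 and 0.13, and -0.051 and -0.034. Scaling shifts each gene and the median of all genes by nearly the same amount. Relative to that median these values thus stayed within their counting intervals under both scalings, nearly by construction. They left them without a filter on low values, where the median of all genes is near 0: 0.36, 0.40 and 0.21 in sh#7, and 0.20, 0.22 and 0.064 in sh#2, for the 8 readers, the YTH genes and the IGF2BP genes. Past 2-fold no setting gave a reader. Of 96 differences of single readers, 29 left their interval and 7 changed sign, those of IGF2BP2 and YTHDC2. Relative to the median of all genes, 96 of 96 stayed, which for the scalings was nearly fixed in advance and is no check. Higher genes made up 48.6% of all genes past 2-fold in sh#7 against control, 34.2% with median-of-ratios and 39.1% with upper-quartile scaling; in sh#2 they made up 41.2%, 30.7% and 32.2%. A pseudocount of 0.1 and a minimum mean of 5 FPKM moved none of the reader summaries. Over all genes, the 260 past 2-fold higher in sh#7 became 394 with that pseudocount and 146 with that minimum, and the 161 higher in sh#7 against sh#2 became 252 and 82. In sh#2 against control 56 higher and 80 lower became 106 and 138 with the pseudocount, and 24 and 49 with the minimum. At 1.5-fold, 1064 higher in sh#7 became 580 with median-of-ratios and 704 with upper-quartile scaling, and 295 higher in sh#2 became 169 and 180, 507 with the pseudocount and 192 with the minimum; 301 lower in sh#2 became 195 and 569 higher in sh#7 against sh#2 became 327 with the minimum. The order of the libraries was checked under the scalings after seeing the data: readers in the reverse order numbered 1 with median-of-ratios and 1 with upper-quartile scaling, in place of 0. Weighted by the longest transcript, all 18 paralog shares moved, by construction. Depth limits YTHDC2 most, with about 717 to 916 estimated fragments per library.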
